A study of Mus musculus with 2 samples.

Results

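Cycling chondrocytes are cartilage cells caught in S, G2 or M phase, and 1059 of them were present among the 12356 cells kept from 2 single-cell RNA-seq libraries of fetal mouse femur. A cell was taken as cycling when the UMIs (unique molecular identifiers, each standing for 1 captured mRNA molecule) of Top2a, Cenpf and Prc1 summed to at least 3. It was taken as a chondrocyte when Col2a1 made up at least 20 of every 10000 UMIs of the cell, Col2a1 UMIs outnumbered Col1a1 UMIs, and Col10a1 stayed under 20 per 10000. Cells had over 200 and under 5000 detected genes and a mitochondrial share under 30%. The wild-type (WT) library held 397 such cells of 5736 kept, and the Bmx-CreER Wls library held 662 of 6620. Cells that met the cartilage terms with none of the 3 cycle transcripts, 1633 and 2957 in number, are called non-cycling chondrocytes, and the 174 and 273 cells with 1 or 2 such UMIs were kept apart.

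The study asked how arterial endothelial cells support haematopoietic cells in fetal bone marrow, and chondrocytes entered the libraries because whole bones were crushed and digested with collagenase before lineage-committed blood cells (Lin+) were removed with magnetic beads. Both libraries came from C57BL/6 embryos at E18.5 and were prepared by the same BD Rhapsody whole-transcriptome protocol. The WT library carried no transgene by its label. The Bmx-CreER Wls library came from embryos with loxP-flanked Wls and a tamoxifen-inducible Cre under the Bmx promoter, a gene of arterial endothelial cells. Wls encodes Wntless, the carrier that Wnt proteins need for secretion. Tamoxifen was given to the pregnant dams. Whether the WT library received it, whether it was a littermate, and how many embryos were pooled are not given in the sources used here. There was 1 library per genotype, so no difference between the libraries was tested, and intervals below are 95% and cover counting error only.

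A growth plate lengthens bone by passing chondrocytes through resting, proliferating columnar, prehypertrophic and hypertrophic zones. Indian hedgehog from prehypertrophic cells and parathyroid hormone-related protein from the resting and joint-side cartilage set how long cells stay in division, while FGF signalling through Fgfr3 slows it. Within a dividing cell, E2F factors drive the genes of DNA replication, and the MuvB complex with B-Myb and FoxM1 drives the later genes of mitosis.

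The 2 libraries held 22708005 and 24704991 UMIs over 5998 and 6825 barcodes, and the kept cells had median UMI counts of 3128 and 3067. Cycling chondrocytes were deeper than non-cycling ones, with medians of 3463 against 2518 UMIs in WT and 3880 against 2572 in Bmx-CreER Wls. The libraries shared 49 barcode sequences, of which 4 and 2 belonged to cycling chondrocytes. Their sex makeup differed, since the WT cycling chondrocytes held 204 UMIs of Y-linked genes and 155 of Xist against 14 and 993 in Bmx-CreER Wls, and sex and genotype cannot be told apart. As a check of the deletion, the cells with a Bmx UMI held 13 Wls UMIs in 31 WT cells and 0 in 38 Bmx-CreER Wls cells, whose 0 allows up to 3 by counting error. Cycling chondrocytes held 0 and 1 Bmx UMIs in the 2 libraries, and Wls stood at 126 CPM (UMIs per 1000000 UMIs of the pooled cells) in them in WT and 121 in Bmx-CreER Wls, a ratio of 0.960 (0.801 to 1.15).

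The label of these cells was checked against markers that the selection had not used. Acan, the main proteoglycan of cartilage, was detected in 99.7% of the cycling cells of WT and 99.2% of those of Bmx-CreER Wls. Sox9, the master transcription factor of chondrocytes, was detected in 92.9% and 93.2%. Mki67, a protein coat of mitotic chromosomes, was detected in 82.9% and 87.5% of the cycling cells against 2.63% and 2.03% of the non-cycling cells. Markers of other lineages were rare. At least 2 UMIs of the endothelial list were found in 8 and 11 cycling cells (2.02% and 1.66%), and the list was at 0 in 376 of 397 and 620 of 662. The leukocyte list reached 2 UMIs in 7 and 14 cells (1.76% and 2.11%) and was at 0 in 384 and 636. Both were less frequent in non-cycling cells, where the endothelial list reached 2 UMIs in 1.47% and 0.778% and the leukocyte list in 0.980% and 0.338%. Osteoblast genes were more frequent there, at 7.59% and 7.37%. Osteoblast genes reached that level in 13 and 26 cycling cells, erythroid genes in 0 and 2, mural genes in 2 and 3, tendon genes in 3 and 3, skeletal muscle genes in 0 and 1, and Schwann cell genes in 1 and 1. Fibroblast collagens were not absent, since the list of perichondrium and fibroblast genes, which holds Col1a1 and Col1a2, reached 2 UMIs in 390 and 658 cycling cells and in 1589 and 2927 non-cycling cells.

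Cells on the 2 sides of the threshold graded into each other. WT cells with a sum of exactly 2 numbered 56 and held 195 CPM of Mki67, and those with a sum of 3 numbered 43 and held 306. In Bmx-CreER Wls the same cells numbered 77 with 277 CPM and 52 with 285. At a sum of 20 or more, 63 WT cells held 1443 CPM of Mki67 and 137 Bmx-CreER Wls cells held 1291. Pcna, the sliding clamp of DNA replication, went the other way at the top of the range, with 40.8 and 51.5 CPM at sums of 20 or more against 109 and 93.1 at a sum of 3.

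Promoters of several of the genes that mark these cells hold 1 or both of 2 short motifs known from mitotic genes. A CCAAT box is the site of the factor NF-Y, and the CHR (cell cycle genes homology region, TTTGAA or TTCGAA) is the site of MuvB. The 150 bases upstream of the annotated start are shown 5′ to 3′ for the 4 cycle markers and for 3 mitotic genes, Cdk1, Cdc20 and Kif11, which were picked because they hold both motifs, from RefSeq on GRCm38.p6, with each CCAAT or CHR on either strand in capitals (ATTGG is CCAAT and TTCAAA is TTTGAA read from the other strand). For Prc1, which has 2 windows in the table, the one with a CHR is shown, and the other held 1 CCAAT box and no CHR.
Top2a (chr11:99024190-99024339, minus strand): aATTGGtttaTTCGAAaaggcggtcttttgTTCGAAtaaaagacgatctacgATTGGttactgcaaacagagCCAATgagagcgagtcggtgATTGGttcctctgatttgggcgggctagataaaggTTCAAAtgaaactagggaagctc
Cenpf (chr1:189688087-189688236, minus strand): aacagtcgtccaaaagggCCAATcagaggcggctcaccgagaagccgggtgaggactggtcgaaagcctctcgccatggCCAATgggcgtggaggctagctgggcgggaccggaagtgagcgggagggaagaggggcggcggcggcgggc
Prc1 (chr7:80294326-80294475, plus strand): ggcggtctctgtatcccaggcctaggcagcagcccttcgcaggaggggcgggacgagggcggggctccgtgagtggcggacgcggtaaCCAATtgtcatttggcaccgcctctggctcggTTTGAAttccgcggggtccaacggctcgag
Iqgap3 (chr3:88081901-88082050, plus strand): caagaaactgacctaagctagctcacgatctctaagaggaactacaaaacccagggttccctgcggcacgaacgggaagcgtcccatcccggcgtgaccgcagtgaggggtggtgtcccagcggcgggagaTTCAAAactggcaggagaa
Cdk1 (chr10:69352913-69353062, minus strand): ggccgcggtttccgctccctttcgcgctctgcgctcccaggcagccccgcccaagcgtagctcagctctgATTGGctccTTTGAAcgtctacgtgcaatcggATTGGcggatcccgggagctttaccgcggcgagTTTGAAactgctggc
Cdc20 (chr4:118437344-118437493, minus strand): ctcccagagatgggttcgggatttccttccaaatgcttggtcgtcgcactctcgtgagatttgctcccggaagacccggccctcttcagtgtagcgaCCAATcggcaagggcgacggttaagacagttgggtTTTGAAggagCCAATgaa
Kif11 (chr19:37376232-37376381, plus strand): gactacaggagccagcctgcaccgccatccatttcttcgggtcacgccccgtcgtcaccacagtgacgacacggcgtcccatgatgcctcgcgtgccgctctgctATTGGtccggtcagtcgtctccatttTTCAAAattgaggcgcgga
The stretch before Top2a held 4 CCAAT boxes and 3 CHR copies, the one before Cdk1 held 2 of each, and that before Cenpf held 2 CCAAT boxes and no CHR. The Iqgap3 stretch held 1 CHR, 19 bases before the start, and no CCAAT box. Other mitotic genes lacked 1 or both motifs in the same stretch. Those of Birc5 and Nusap1 held neither, and those of Ccnb1, Plk1, Hmmr, Ccnb2 and Kif23 held CCAAT boxes but no CHR. This holds for the 150 bases only. In the wider windows described next, a CHR did stand for Cenpf, Hmmr, Ccnb2, Kif23 and the Prc1 window not shown. Of the 52 genes of the G2 and M phase list, 45 had a promoter in the table, whose windows run from 250 bases before the start to 50 after it. A CCAAT box stood in 34 of those 45 (75.6%) and a CHR in 34 (75.6%), against 41.1% and 21.7% of the 27025 genes of the table. Both motifs together stood in 27 of 45 (60%) against 8.61% of all genes. Among 17 matched cartilage matrix genes, 8 held a CCAAT box (47.1%), 2 held a CHR (11.8%) and 0 held both. The E2F letters TTCCCGCC or TTTCCCGC stood in 1 of the 45 mitotic promoters (2.22%) against 3.15% of all genes. Of the 43 genes of the S phase list, 31 had a promoter in the table. Among those, 22 held a CCAAT box (71.0%), 6 a CHR (19.4%), 4 both (12.9%) and 10 the E2F letters (32.3%). The CCAAT box was thus about as frequent in the S phase list as in the mitotic one. These matches describe letters only, and no binding was measured.

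Because the cells were chosen by cycle transcripts, the comparison with non-cycling chondrocytes is a description of what came along with them, with no test. Of 9677 genes with at least 100 UMIs in these cells, 621 were at least 2-fold higher in cycling than in non-cycling chondrocytes in both libraries (6.42%), and 129 were at least 2-fold lower in both (1.33%). The median gene had ratios of 1.01 in WT and 0.994 in Bmx-CreER Wls. The plot of levels shows the 4 gene groups that set the picture.

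**Figure D1:**
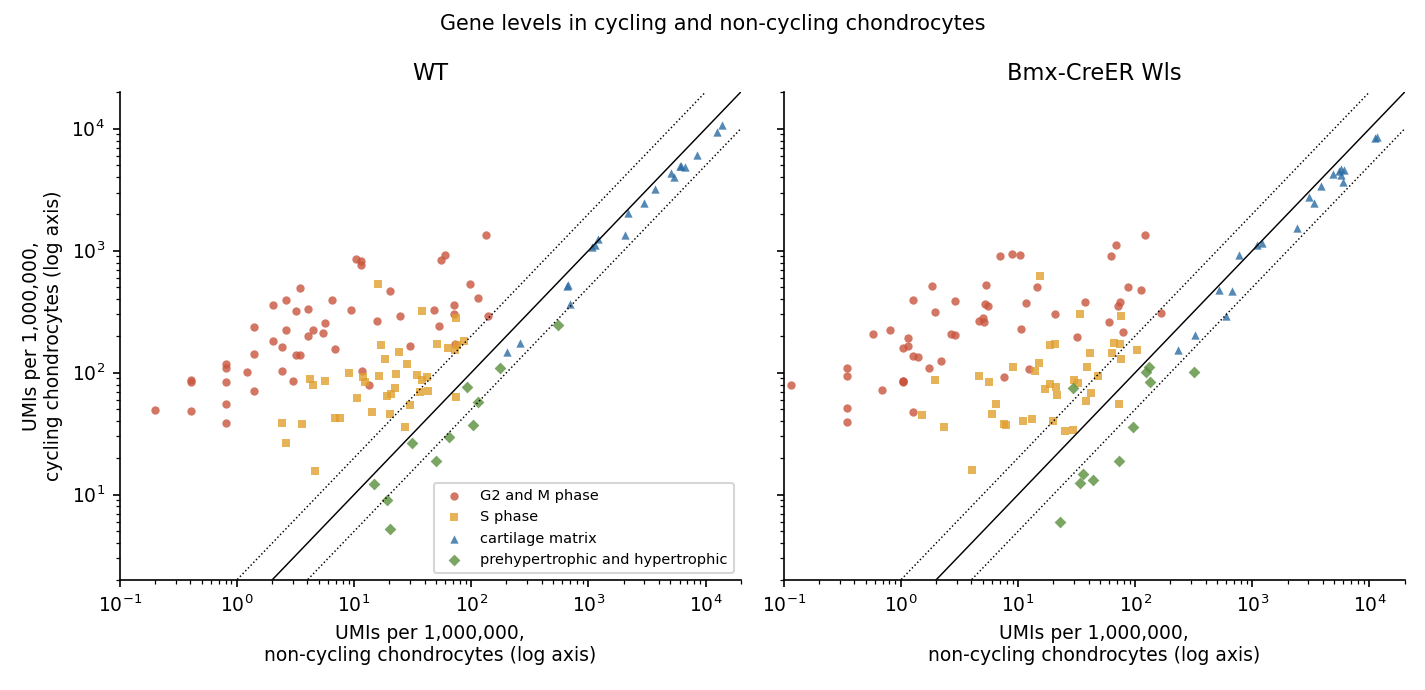
Level of each gene in cycling chondrocytes against its level in non-cycling chondrocytes (both in UMIs per 1000000, log axes), WT on the left and Bmx-CreER Wls on the right. Points are genes of 4 lists, the solid line marks equal levels and the dotted lines a 2-fold difference. G2 and M phase genes lie far above the lines, S phase genes mostly above them, cartilage matrix genes near or just under the line of equality, and most prehypertrophic genes near or below the lower dotted line, with Mmp13 above it in Bmx-CreER Wls.

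The mitotic genes were the most different. Of the 52 genes of the G2 and M phase list, 51 were at least 2-fold higher in both libraries, with median ratios of 48.9 in WT and 70.3 in Bmx-CreER Wls. The exception was Cbx5, a heterochromatin protein, at 2.12 and 1.87. Mxd3, a Max-binding repressor, led the ranking by the smaller of the 2 ratios and stood at 92.2 CPM in cycling and 0.403 in non-cycling WT cells, a ratio of 229 (62.1 to 1906), and at 161 and 0.814 CPM in Bmx-CreER Wls, a ratio of 198 (95.1 to 494). Hmmr, a spindle protein, followed at 362 against 2.02 CPM in WT and 397 against 1.28 in Bmx-CreER Wls. The other 10 leading genes were Kif11, Kif18b, Nusap1, Ccnb1, Fam64a, Ndc80, Kif2c, Ccna2, Cep55 and Plk1, most of them known for parts in spindle assembly, chromosome attachment, mitotic entry or cell division. Their smaller ratio ran from 108 (Plk1) to 167 (Kif11), both in WT. The order was not stable. Thinned to 2000 UMIs, the smaller ratio of Mxd3 was 82.3, that of Kif2c 56.1 and that of Cep55 58.6, against 180 for Kif11 and 163 for Ndc80. Hmmr led without the top 5% of Scrublet doublet scores (229 against 219 for Mxd3), and Cep55 as a mean over cells (223).

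Machines of division came as whole sets. All 12 measured spindle motors were past 2-fold, among them Kif11, the motor that pushes spindle poles apart, at 167 (80.2 to 418) in WT and 276 (133 to 689) in Bmx-CreER Wls. All 12 genes of the chromosomal passenger complex and spindle checkpoint were past it too. Aurkb, the kinase of that complex, stood at 181 CPM against 2.02 in WT and at 209 against 0.581 in Bmx-CreER Wls. All 20 centromere and kinetochore genes were higher, with medians of 21.6 and 28.3 and Cenpt, which links the centromere to the kinetochore, lowest at 3.58 (2.22 to 5.77) and 4.52 (3.31 to 6.22). All 8 measured cytokinesis genes were higher. The marker Iqgap3, a scaffold protein named for these cells but not used in choosing them, stood at 162 CPM against 2.02 in WT and 248 against 1.39 in Bmx-CreER Wls, ratios of 80.2 (42.9 to 169) and 178 (101 to 346).

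Chromosome folding genes were not alike. Of 13 condensin and cohesin genes, 10 were past 2-fold. Smc2 and Smc4, the core of condensin, had ratios of 17.7 and 9.94 in WT and 19.6 and 11.2 in Bmx-CreER Wls. The 3 genes short of 2-fold were the cohesin subunits Smc3, Stag1 and Stag2, at 1.5, 1.70 and 1.46 in WT and 1.6, 1.85 and 1.46 in Bmx-CreER Wls. Rad21, the cohesin subunit that separase cuts, was higher at 5.53 (4.96 to 6.17) and 5.74 (5.30 to 6.22). Of 7 genes around the anaphase-promoting complex, 6 were past 2-fold, among them its activator Cdc20 at 66.5 (37.4 to 131) and 77.0 (50.8 to 123). The other was the securin gene Pttg1, at 0.700 (0.409 to 1.14) and 0.563 (0.356 to 0.858). Pttg1, like several tubulin, histone, Gapdh and ribosomal genes, has near-identical copies or pseudogenes in the genome, so its count is uncertain.

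S phase genes were also higher, by a smaller factor. Of 40 measured genes of the S phase list, 32 were past 2-fold, with medians of 3.96 and 3.71. Rrm2, the regulated subunit of ribonucleotide reductase, stood at 534 CPM against 15.9 in WT and at 616 against 15.5 in Bmx-CreER Wls, ratios of 33.5 (26.6 to 42.8) and 39.8 (33.4 to 47.9). Pcna stood at 96.1 against 34.3 and at 111 against 38.8 CPM, ratios of 2.80 (2.23 to 3.51) and 2.87 (2.44 to 3.36). The helicase genes Mcm2 and Mcm3, loaded on DNA before S phase, were at 1.93 and 1.94 in WT and 1.55 and 1.86 in Bmx-CreER Wls. Ung, a uracil-removing repair enzyme, was at 0.846 (0.669 to 1.06) and 0.751 (0.624 to 0.899). The wider DNA replication list had 30 of 36 genes past 2-fold, with medians of 3.40 and 3.38. Non-cycling chondrocytes were not free of replication transcripts, since 22.4% (20.4 to 24.5) of them in WT and 22.7% (21.2 to 24.3) in Bmx-CreER Wls held at least 5 UMIs of the S phase list. A cell in S phase with no Top2a, Cenpf or Prc1 UMI counts as non-cycling by the rule.

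Cyclins divided by the phase they serve. Ccnb1, the mitotic cyclin, had 285 against 1.41 CPM in WT and 317 against 2.09 in Bmx-CreER Wls. Ccne1, the cyclin of S phase entry, had ratios of 4.14 (3.28 to 5.23) and 4.23 (3.45 to 5.19). The D cyclins, which answer to growth signals in G1, were not higher. Ccnd2 stood at 289 CPM in cycling and 546 in non-cycling WT cells and at 312 and 619.8 in Bmx-CreER Wls, giving 0.529 (0.477 to 0.585) and 0.503 (0.467 to 0.541). Ccnd1 gave 0.856 (0.728 to 1.0) and 0.794 (0.700 to 0.899). Of the 13 cyclins and CDKs, 8 were past 2-fold higher and 0 past 2-fold lower, against 6.42% and 1.33% of all genes.

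The brakes of the cycle were not uniformly low. Of 8 measured CDK inhibitors and pocket proteins, 4 were at least 2-fold higher and 0 lower, against 6.42% and 1.33% of all genes. Cdkn2c (p18), an inhibitor of Cdk4 and Cdk6, had ratios of 30.5 (20.2 to 48.1) and 26.5 (20.2 to 35.2), and its relative Cdkn2d (p19) 11.4 (9.14 to 14.3) and 10.6 (8.97 to 12.5). Cdkn1c (p57), an inhibitor that chondrocytes need for leaving the cycle, was detected in 95.7% and 97% of cycling cells, with 2365 CPM against 2785 in non-cycling cells of WT and 2444 against 2622 in Bmx-CreER Wls. Cycling chondrocytes thus held nearly as much p57 transcript as non-cycling ones. Among the E2F and MuvB genes, 7 of 15 were past 2-fold. They included the late E2F repressors E2f7 at 61.2 and 32.3 and E2f8 at 21.0 and 43.8, and the mitotic activators Foxm1 at 65.0 and 44.9 and Mybl2 (B-Myb) at 12.5 and 40.8. E2f4, a repressor of resting cells, was at 1.10 and 1.23.

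Nuclear structure and the cytoskeleton followed the cycle in part. Of 9 lamina and HMG genes, 8 were past 2-fold, such as the B-type lamin Lmnb1 at 8.22 (6.93 to 9.78) and 10.9 (9.64 to 12.4) and the chromatin protein Hmgb2 at 15.5 and 16.4. The A-type lamin gene Lmna was the exception at 1.55 and 1.4. Of 9 tubulin and stathmin genes, 6 were past 2-fold, and of 8 variant histone genes 5 were, led by H2afx, which marks DNA breaks, at 11.5 and 15.4. Few replication-dependent histone mRNAs have a poly(A) tail, and 7 of 63 such genes reached 100 UMIs, of which 4 were past 2-fold. Beside the counts in this paragraph, 6.42% of all genes were past 2-fold higher and 1.33% lower. Growth genes were mostly short of 2-fold, as were most genes, and the small Myc and p53 lists cannot be told from these shares. Of 8 Myc-related genes, 1 was past 2-fold, Mycn, a Myc relative, at 2.50 and 2.25, while Myc itself was at 0.553 (0.416 to 0.724) and 0.567 (0.430 to 0.739). None of 6 p53 targets passed 2-fold in either direction, and neither did any of 85 ribosomal protein genes, whose medians were 0.899 and 0.905.

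Cartilage matrix genes were a little lower in cycling cells. None of the 20 measured genes passed 2-fold in either direction, against 6.42% of all genes higher and 1.33% lower. The list medians were 0.779 and 0.756. Col9a1, a chain of the collagen that coats type II fibrils, stood at 10765 CPM in cycling and 13951 in non-cycling WT cells and at 8365 and 11216 in Bmx-CreER Wls, giving 0.772 (0.759 to 0.785) and 0.746 (0.735 to 0.757). Acan gave 0.818 (0.797 to 0.839) and 0.814 (0.798 to 0.830). Chad, a chondrocyte adhesion protein, was lower at 0.522 (0.476 to 0.570) and 0.491 (0.455 to 0.530). Matn3, a matrilin of cartilage, was not, at 1.03 (0.980 to 1.09) and 1.21 (1.16 to 1.27). Col2a1 itself, which the selection used, stood at 55299 against 70922 CPM and 51384 against 65174. The G2 and M phase list summed to 15514 CPM in WT and 17119 in Bmx-CreER Wls, against 1154 and 1137 in non-cycling cells. The median ratio over all genes was 1.01 and 0.994. Whether these sums have a part in the lower matrix levels was not tested.

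Genes of the step that follows division were lower in cycling cells. Of 11 prehypertrophic and hypertrophic genes, 6 were at least 2-fold lower in both libraries and 0 were higher, with medians of 0.474 and 0.373. Of all genes, 1.33% were lower and 6.42% higher by this measure. Ihh, the signal that prehypertrophic cells send back to dividing ones, stood at 37.0 CPM in cycling and 104 in non-cycling WT cells and at 18.9 and 72.7 in Bmx-CreER Wls, giving 0.356 (0.266 to 0.469) and 0.260 (0.191 to 0.346). Panx3, a channel of prehypertrophic cells, was at 0.450 (0.403 to 0.501) and 0.321 (0.283 to 0.364). Sp7, the osteogenic factor also found in these cells, was at 0.464 (0.333 to 0.634) and 0.412 (0.288 to 0.574). The others past 2-fold were Alpl, Ibsp and Cd200, and 4 of the 5 measured osteoblast genes, which share 3 of these, were lower as well. The limit on Col10a1 had removed the most mature cells from both classes. Among the chondrocytes with Ihh at 10 to under 50 per 10000, 1 of 25 WT cells and 1 of 27 Bmx-CreER Wls cells was cycling (4.00%, 0.101 to 20.4, and 3.70%, 0.0937 to 19). Of 12 cartilage transcription factors, 1 was past 2-fold lower, Foxa2, a driver of hypertrophy, at 0.425 (0.163 to 0.938) and 0.349 (0.162 to 0.673). Sox9 was at 0.685 (0.655 to 0.717) and 0.746 (0.721 to 0.772).

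The 12 genes with the smallest ratios were Gdf6, Neu1, Thnsl2, Rapgefl1, Tmem150a, Mettl21b, Jhdm1d, Mccc1, Alpl, Irak4, Rgag4 and Slc16a4. Most rested on few molecules. Gdf6, a joint-forming growth factor, had 1 UMI in WT and 7 in Bmx-CreER Wls cycling cells, giving 0.0870 (0.00215 to 0.516) and 0.170 (0.0670 to 0.360). Slc16a4, a monocarboxylate transporter, was the best counted of those 12, with 24 and 41 UMIs, at 15.6 CPM against 58.1 in WT and 15.2 against 59.4 in Bmx-CreER Wls, giving 0.268 (0.169 to 0.407) and 0.255 (0.181 to 0.351). Alpl, the phosphatase of mineralising cells, gave 0.258 (0.108 to 0.527) and 0.258 (0.145 to 0.430).

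Receptors and ligands of the growth plate were mostly short of 2-fold, as were most genes. Of all genes, 6.42% were at least 2-fold higher in both libraries and 1.33% at least 2-fold lower. In the Hedgehog and PTHrP list, 2 of 10 genes were at least 2-fold lower, Ihh and the PTHrP receptor Pth1r, the latter at 0.474 (0.388 to 0.575) and 0.467 (0.382 to 0.568). Gli1, a readout of hedgehog signalling, was at 1.07 (0.833 to 1.35) and 1.49 (1.20 to 1.84). None of 10 FGF genes and none of 17 BMP genes was past 2-fold. Fgfr3 was at 0.730 (0.669 to 0.797) and 0.867 (0.804 to 0.934), and Id1, a target of BMP signalling, at 1.29 (1.06 to 1.56) and 1.65 (1.44 to 1.89). In the IGF list 1 of 9 was lower, the binding protein Igfbp5 at 0.428 (0.396 to 0.461) and 0.341 (0.323 to 0.360). In the Wnt list 2 of 22 were lower, the ligands Wnt4 at 0.435 (0.258 to 0.696) and 0.224 (0.144 to 0.334) and Wnt5a at 0.469 (0.357 to 0.608) and 0.466 (0.368 to 0.584). Wls had ratios of 1.52 (1.27 to 1.81) and 1.32 (1.16 to 1.51).

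Of 16 genes of glycolysis and hypoxia, 1 was past 2-fold, Aldoa, a glycolytic aldolase, lower at 0.473 (0.439 to 0.511) and 0.460 (0.435 to 0.485). Beside the counts in this paragraph, 6.42% of all genes were past 2-fold higher and 1.33% lower. Ldha, lactate dehydrogenase, was at 0.895 and 0.966. None of the 9 genes of the dissociation response, none of 6 resting zone genes and none of 6 perichondrium and fibroblast genes was past 2-fold, and of 6 columnar zone genes only Pth1r was. In the joint surface list Cd44, a hyaluronan receptor, was the 1 of 8 past it, at 3.03 (2.27 to 4.04) and 2.09 (1.65 to 2.65). Cd44 is also abundant in blood cells, so the leukocyte list was read beside it. That list summed to 71.4 and 81.0 CPM in cycling and to 51.2 and 12.7 CPM in non-cycling cells of WT and Bmx-CreER Wls, and its part in the Cd44 ratio was not tested. Among its 3 measured genes Coro1a, an actin regulator of leukocytes, was past 2-fold higher, at 5.08 (3.03 to 8.64) and 6.67 (4.28 to 10.6), from 7 and 14 cells. None of 6 endothelial genes was.

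Cycling cells made up 18% (16.4 to 19.7) of the 2204 WT chondrocytes and 17% (15.8 to 18.2) of the 3892 Bmx-CreER Wls chondrocytes. With every cell thinned to 2000 UMIs the shares were 17.7% (15.9 to 19.6) and 17.3% (16 to 18.7), after 586 and 911 shallower chondrocytes were left out. The 2 libraries thus gave shares whose intervals overlapped. The same 3 transcripts marked 15.2% and 14.7% of the stromal cells (Col1a1 at 20 or more per 10000 and at least as many Col1a1 as Col2a1 UMIs). They marked 2 of 213 and 1 of 217 cartilage cells with Col10a1 at 20 or more per 10000 (0.939%, 0.114 to 3.35, and 0.461%, 0.0117 to 2.54). Those cells were deep, with median UMI counts of 6567 and 6909. Chondrocytes made up more of the Bmx-CreER Wls library (58.8% against 38.4% of kept cells), so they also made up more of its dividing cells. Of all cells with 3 or more cycle UMIs, cycling chondrocytes were 33.2% (30.6 to 36) in WT and 53.7% (50.9 to 56.5) in Bmx-CreER Wls.

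Zones of the cartilage were read from 1 gene each at 10 or more UMIs per 10000, with Ucma for resting, Epyc for columnar and Prg4 (lubricin) for joint surface cartilage. Among cycling cells, 39.8% of WT and 29.2% of Bmx-CreER Wls were Ucma cells, 35.3% and 20.4% were Epyc cells, 31.0% and 29.6% were Prg4 cells, and 18.4% and 35.3% were none of these. The gates overlapped, with 77 and 74 cycling cells in both the Ucma and the Epyc gate. Cells with 5 or more UMIs of leukocyte genes that were neither chondrocytes nor stromal cells passed none of the 3 gates (0 of 501 and 0 of 368, at median depths of 6724 and 6683.5 UMIs, which allows shares up to 0.599% and 0.815%). Every zone held dividing cells. The cycling share was 19.8% (17 to 22.7) in WT Ucma cells, 15.8% (13.4 to 18.3) in WT Epyc cells and 19.5% (16.5 to 22.8) in WT Prg4 cells. In Bmx-CreER Wls the 3 shares were 17.6% (15.4 to 20), 13.9% (11.8 to 16.3) and 16.8% (14.7 to 19). After thinning to 2000 UMIs the Epyc gate held 12.3% and 12.9% cycling cells and the Prg4 gate 24.4% and 19.9%.

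The cycling share was not the same at every level of the zone genes. Among the Prg4 bins, those above 0 and under 50 per 10000 held the highest cycling shares, with 26.6% and 26.9% below 10 and 24.8% and 23.2% from 10 to 50. In Bmx-CreER Wls the bin above 0 and under 10 was also the highest for Ucma (23.2%), Epyc (21.8%) and Matn1 (26.5%). In WT this held for Matn1 (22.4%) but not for Ucma or Epyc. These peaks depended on depth. After thinning to 2000 UMIs, that bin was still the highest in Bmx-CreER Wls for Ucma (20.2%) and Epyc (19.8%). For Matn1 it no longer was, with 21.2% against 21.5% at 10 to under 50 in Bmx-CreER Wls. In WT the Matn1 bin held 21.9% after thinning, against 24.9% in cells with no Matn1 UMI. At 50 or more Prg4 UMIs per 10000, where the superficial cells lie, the shares were 13.7% (9.99 to 18.1) and 9.79% (7.46 to 12.5). Cells with no Prg4 UMI held 16.2% and 15.2%. Thinned to 2000 UMIs, the top Prg4 bin held 17.5% (12.3 to 23.6) and 11.5% (8.48 to 15.0), against 14.8% and 15.5% in cells with no Prg4 UMI. Compared with cells without Prg4 UMIs, the lower share at the top of the range was thus not seen in WT at equal depth. Compared with the bin from 10 to under 50, which held 30.5% and 26.6% after thinning, the top bin was lower in both libraries. For Col2a1 the share was lower at the upper end of its range. The cycling share was 23.8% and 24.1% at 200 to under 500 Col2a1 UMIs per 10000, 17.5% and 16.3% at 500 to under 1000, and 8.24% (5.63 to 11.6) and 6.59% (4.61 to 9.09) at 1000 or more. After thinning to 2000 UMIs the top Col2a1 bin held 7.33% and 5.04%. Col2a1 was part of the selection, so this is a description only.

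**Figure D2:**
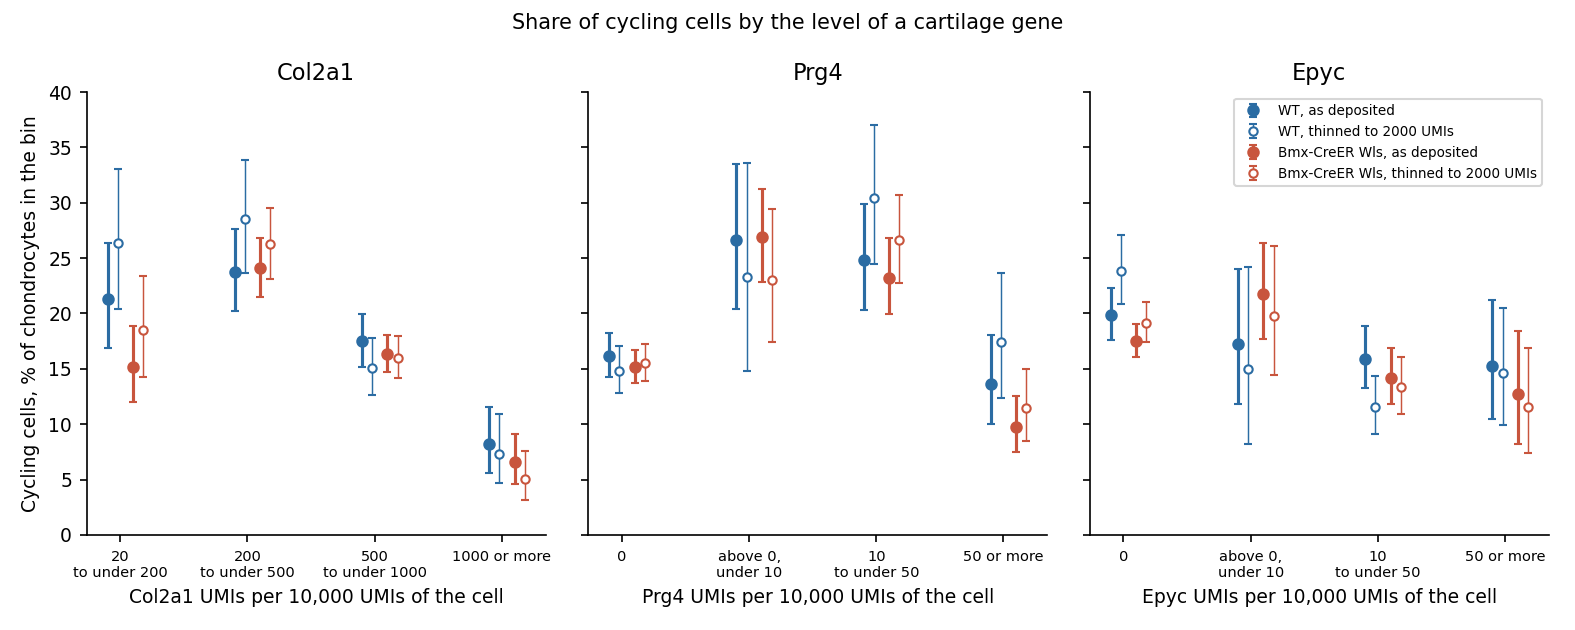
Percentage of chondrocytes that were cycling (vertical axis) in bins of Col2a1, Prg4 and Epyc level (UMIs per 10000 UMIs of the cell) for WT (blue) and Bmx-CreER Wls (red). Filled points are cells as deposited, open points cells thinned to 2000 UMIs, and bars are exact 95% binomial intervals over cells. As deposited, the share is lowest at the top of the Col2a1 range, 8.24% and 6.59%. At the top of the Prg4 range it is 13.7% and 9.79% as deposited and 17.5% and 11.5% after thinning.

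Within the cycling cells, G2 and M transcripts outweighed S phase transcripts. The median WT cell held 14 UMIs of the S phase list and 52 of the G2 and M phase list, and the median Bmx-CreER Wls cell held 16 and 66. More S than G2 and M phase UMIs were found in 68 of 397 WT cells (17.1%, 13.6 to 21.2) and in 74 of 662 Bmx-CreER Wls cells (11.2%, 8.88 to 13.8). These cells are the end of a range, and 18 and 19 cells lay within 2 UMIs of equal. The selection itself favours late stages, since Cenpf and Prc1 transcripts are known to peak in G2 and M phase. The share also moved with depth and threshold, to 12.2% and 6.56% after thinning to 2000 UMIs and to 10.4% and 6.22% at a sum of at least 5.

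**Figure D3:**
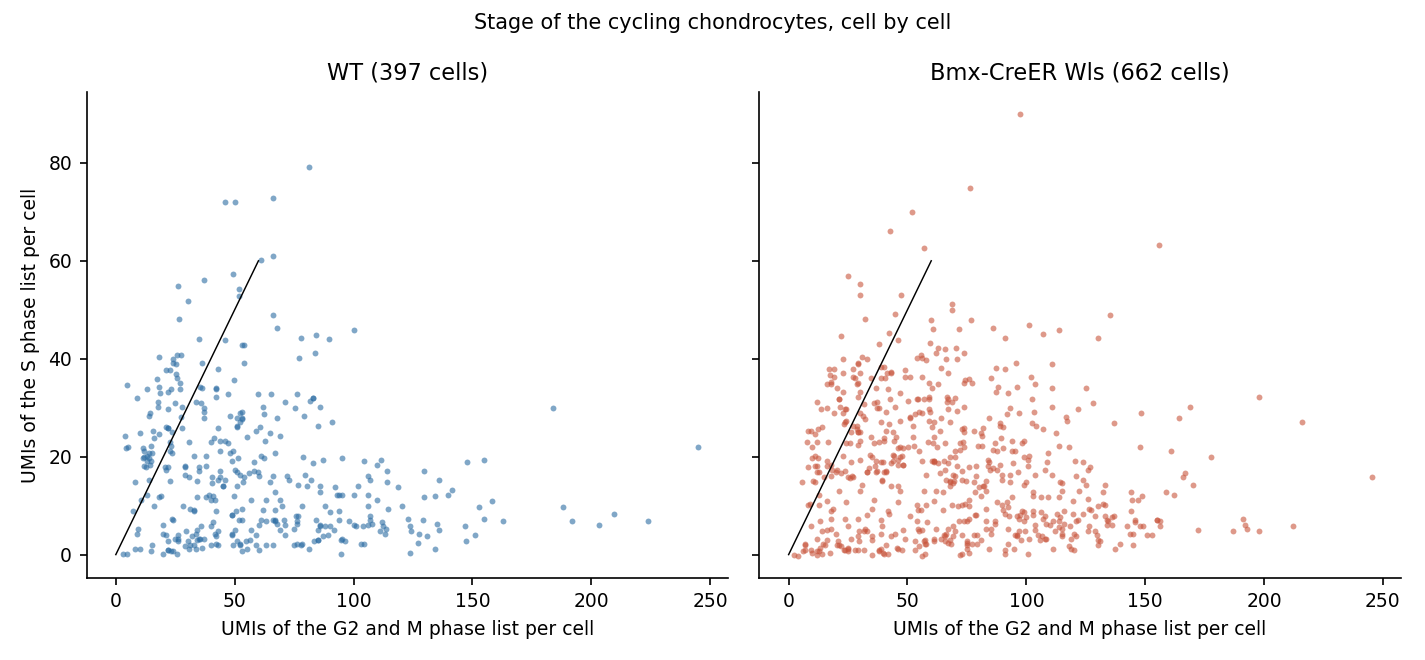
Each point is 1 cycling chondrocyte, placed by its UMIs of the G2 and M phase list (horizontal) and of the S phase list (vertical), with a random offset of under 1 UMI against overlap, WT on the left and Bmx-CreER Wls on the right. The line marks equal UMIs of both lists, and 68 WT and 74 Bmx-CreER Wls cells lie above it.

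Genes outside both lists differed between the 2 ends of that range. Ccnb1 stood at 12.7 CPM in the S-rich WT cells and 356 in the G2 and M-rich ones, and at 15.8 and 357 in Bmx-CreER Wls. Plk1, the polo-like kinase of mitotic entry, had 1 UMI in the S-rich WT cells, or 3.17 CPM, and 136 CPM in the others, and 19 and 146 in Bmx-CreER Wls. Ccne1 ran the other way, with 234 against 79.5 CPM in WT and 219 against 65.8 in Bmx-CreER Wls. E2f1, an activator of replication genes, followed it with 215 against 49.2 and 162 against 63.3. These genes fell on the side of their known timing. Ccnd2 was 472 against 242 and 577 against 277, beside 546 and 619.8 CPM in non-cycling cells. Matrix transcripts were present at both ends. Col2a1 stood at 62301 CPM in S-rich and 53528 in G2 and M-rich WT cells and at 52772 and 51233 in Bmx-CreER Wls. Cdkn1c stood at 2520 and 2324 CPM in WT and 2377 and 2453 in Bmx-CreER Wls.

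Cycling stromal cells, 297 in WT and 220 in Bmx-CreER Wls, passed the same cycle threshold and were compared with cycling chondrocytes. Of 7487 genes, 271 were at least 2-fold higher in cycling chondrocytes in both libraries (3.62%) and 493 were at least 2-fold lower (6.58%), with median ratios of 0.934 and 0.920. Neither phase list differed widely. None of the 52 G2 and M phase genes and none of 41 S phase genes passed 2-fold, with list medians of 1.01 and 1.15 and of 0.941 and 0.871. Mki67 stood at 857 CPM in cycling chondrocytes and 789 in cycling stromal cells of WT and at 942 and 779 in Bmx-CreER Wls. Cdkn1c, the brake, had ratios of 1.23 (1.17 to 1.29) and 1.38 (1.31 to 1.45).

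Cartilage transcripts differed between these dividing cells, in a direction that the Col2a1 and Col1a1 terms partly fixed. All 20 cartilage matrix genes were at least 2-fold higher in cycling chondrocytes. Matn1, a cartilage matrilin, had ratios of 114 (91.0 to 146) in WT and 189 (124 to 306) in Bmx-CreER Wls. After it came 3110079O15Rik, Ucma, Epyc, Matn3, Calml3, Chadl, Lect1, Col9a1 and Col9a2, whose smaller ratio ran from 25.9 to 97.3. Among the 10 lowest were Ibsp, Clec3b, Tnxb, Car3, Mfap5, Adam33, Fndc1, Sod3 and Ifitm5, several of them known from bone or fibrous tissue. Ibsp, a bone matrix sialoprotein, stood at 9.09 CPM against 3450.5 in WT and at 13.3 against 3205 in Bmx-CreER Wls.

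Signals and metabolism also differed between these dividing cells. Of 15 glycolysis and hypoxia genes, 9 were at least 2-fold higher in cycling chondrocytes and 0 lower, against 3.62% of all genes higher, with medians of 2.97 and 2.91. Bnip3, a hypoxia-induced mitophagy protein, had ratios of 9.63 (7.43 to 12.7) and 9.13 (6.84 to 12.5), and the glucose transporter Slc2a1 9.48 (5.57 to 17.3) and 7.08 (4.52 to 11.7). In the IGF list 6 of 11 were at least 2-fold lower and 0 higher, against 6.58% of all genes lower. Igf1 was at 0.0363 (0.0259 to 0.0496) and 0.0268 (0.0189 to 0.0369), whereas the fetal growth factor Igf2 was at 1.29 and 1.17. In the Wnt list 5 of 20 were higher and 1 lower, against 3.62% and 6.58% of all genes. The higher ones were Fzd9, Sfrp1, Frzb, Wif1 and Lef1, among them the secreted antagonists Wif1 at 3.23 (2.66 to 3.94) and 4.07 (3.37 to 4.95) and Frzb at 5.28 (3.41 to 8.52) and 6.09 (3.99 to 9.73). The lower one was Dkk3, a secreted relative of Wnt antagonists, at 0.285 (0.226 to 0.357) and 0.324 (0.273 to 0.384). Of 14 BMP genes 4 were higher and 1 lower, against the same shares. Wls itself was at 0.476 (0.398 to 0.568) and 0.547 (0.462 to 0.649).

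**Figure D4:**
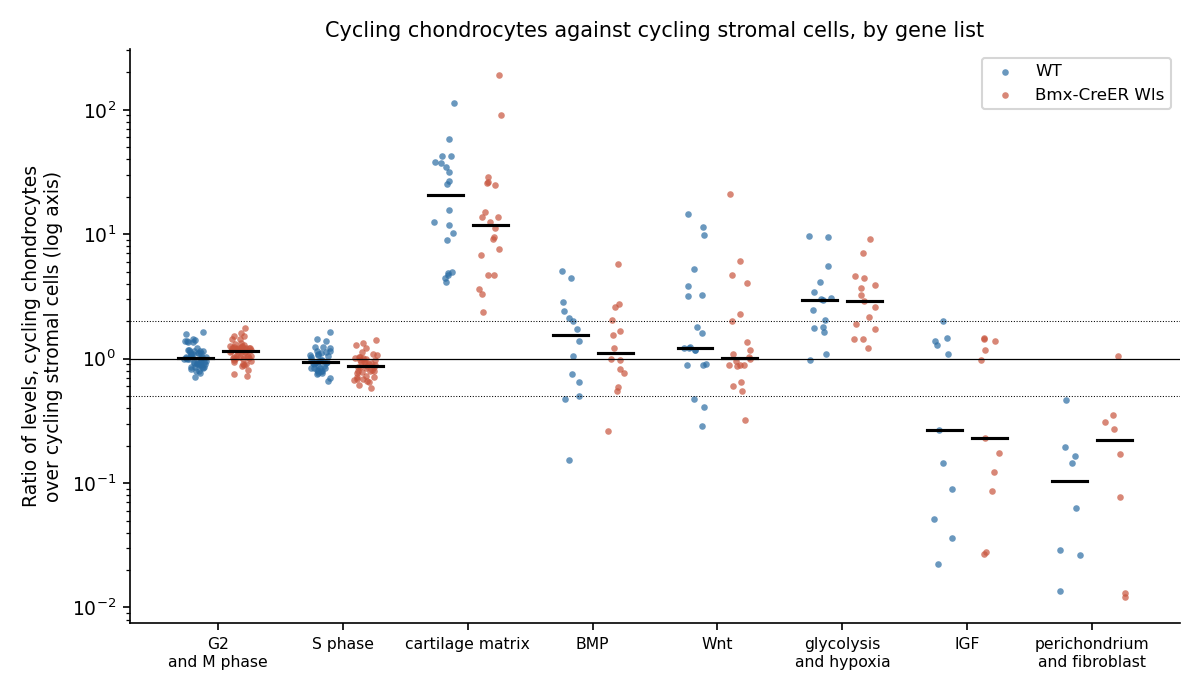
Ratio of the level in cycling chondrocytes to that in cycling stromal cells (vertical log axis) for each gene of 8 lists, WT in blue and Bmx-CreER Wls in red, with bars at the list medians, a solid line at equal levels and dotted lines at 2-fold. G2 and M phase and S phase genes sit within the dotted lines, cartilage matrix genes all lie above them, and glycolysis genes centre near 3-fold.

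Between the libraries the G2 and M phase genes of cycling chondrocytes stayed within 1.5-fold, while some other division genes did not. Of 5727 genes, 224 were at least 1.5-fold higher in Bmx-CreER Wls (3.91%) and 168 at least 1.5-fold lower (2.93%), with a median ratio of 1.0. None of the 52 G2 and M phase genes was past 1.5-fold in either direction, with a median of 1.09. Of 39 S phase genes 0 were higher and 3 lower, Cdca7, Ccne2 and Slbp, at 0.624 (0.459 to 0.851), 0.648 (0.487 to 0.862) and 0.644 (0.487 to 0.851). Mki67 was 1.10 (1.03 to 1.18), Cdk1 1.07 (1.0 to 1.15) and Pcna 1.16 (0.948 to 1.42). Espl1, the separase, was higher at 1.71 (1.32 to 2.23). Iqgap3 was higher at 1.54 (1.33 to 1.79), with 162 CPM in WT and 248 in Bmx-CreER Wls. The 2 pools differed in stage, since S-rich cells were 17.1% of cycling cells in WT and 11.2% in Bmx-CreER Wls. Iqgap3 was lower in S-rich than in G2 and M-rich cells in both libraries. In the G2 and M-rich cells it stood at 199 CPM in WT and 277 in Bmx-CreER Wls. The part of stage in the Iqgap3 ratio was not tested. Of 8 cytokinesis genes 2 were past 1.5-fold higher, Iqgap3 and the kinase Cit, at 1.56 (1.26 to 1.96), against 3.91% of all genes. Mxd3 was 1.74 (1.44 to 2.12), and Tk1, the thymidine kinase of S phase, was 1.49 (1.24 to 1.78). Of 5 canonical histone genes 2 were past 1.5-fold higher, with a list sum ratio of 1.49 (1.36 to 1.63) beside 0.977 in non-cycling cells, and Hist1h1b, a linker histone, was 2.51 (1.68 to 3.86). Tuba1b, an alpha-tubulin, was 1.94 (1.82 to 2.08), beside 1.86 in non-cycling chondrocytes.

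Single cartilage genes went past 1.5-fold. Of the 20 cartilage matrix genes, 1 was past 1.5-fold higher and 1 lower, with a median of 0.913. These counts are near the shares of all genes, 3.91% higher and 2.93% lower. Epyc and Ucma are not in that list. Epyc, a small proteoglycan of columnar cartilage, stood at 1539.5 CPM in WT and 762 in Bmx-CreER Wls cycling cells, a ratio of 0.495 (0.466 to 0.525), beside 0.576 in non-cycling cells. Matn1 was 0.605 (0.588 to 0.623) beside 0.714, and Ucma 0.749 (0.707 to 0.795) beside 0.764. Fmod (fibromodulin) was higher, at 2439 CPM in WT and 4223 in Bmx-CreER Wls, a ratio of 1.73 (1.67 to 1.80) beside 1.64. Each of these went the same way in cycling and non-cycling cells. Epyc cells were 35.3% of cycling cells in WT and 20.4% in Bmx-CreER Wls, by a gate that Epyc itself sets. A difference in makeup and a difference in Epyc level therefore cannot be told apart here, and neither was tested. Among cycling cells with Epyc under 10 per 10000, 257 in WT and 527 in Bmx-CreER Wls, the Epyc ratio was 1.02 (0.759 to 1.37), where the gate itself used Epyc, and the Matn1 ratio was 0.905 (0.846 to 0.968). Fmod stood at 1.57 (1.5 to 1.64) in them.

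The 8 smallest ratios belonged to Fabp4, Ctsk, Runx2, Loxl4, Nek1, Panx3, Smpd3 and Cav1. Runx2, the transcription factor that drives chondrocyte maturation, was 76.6 CPM in WT and 30.3 in Bmx-CreER Wls, a ratio of 0.396 (0.295 to 0.529), and was found in 72 and 44 cells. Panx3 was 247 and 101 CPM, a ratio of 0.411 (0.350 to 0.481), from 39 and 24 cells. Smpd3, a sphingomyelinase of mineralising cartilage, was 0.421 (0.337 to 0.524). These 3 were 0.570, 0.576 and 0.566 in non-cycling cells. In cells with Xist and no Y-linked UMI, 77 in WT and 449 in Bmx-CreER Wls, Runx2 was 0.334 (0.215 to 0.526), but Panx3 was 0.849 (0.589 to 1.26) and Smpd3 0.830 (0.504 to 1.44). Nek1, a kinase of cilia and DNA repair, was 0.405 (0.293 to 0.557) from 72 and 57 cells, and Loxl4, a collagen cross-linking enzyme, 0.402 (0.272 to 0.590). Of 68 WT Loxl4 UMIs, 21 came from 1 cell, and its ratio was 0.519 without the top cell of each library and 0.127 (0.0787 to 0.203) in the cells with Xist and no Y-linked UMI.

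Other extremes rested on single cells or on cells with markers of another type. Of 198 Ctsk UMIs in WT cycling cells, 157 came from 1 cell, and the ratio of 0.268 (0.207 to 0.344) became 0.943 without the top cell of each library. Ctsk is the collagenase of osteoclasts. Fabp4, a lipid carrier of endothelium and fat, had 97 UMIs in 6 WT cells and 34 in 11 Bmx-CreER Wls cells, a ratio of 0.200 (0.131 to 0.298), and Cav1, the main protein of caveolae, was 0.430 (0.321 to 0.574). The endothelial list summed to 123 and 54.7 CPM in these cells. Without the cells that held 2 or more UMIs of endothelial, leukocyte or erythroid genes, Cav1 was 0.892 (0.501 to 1.62) and Fabp4 stood at 1.39 and 3.54 CPM in the 2 libraries, while Runx2 was 0.427 (0.315 to 0.577). Among the 8 largest ratios, Mmp13 (6.12) had 193 of its 204 Bmx-CreER Wls UMIs in 1 cell and Mpo (4.35) had 92 of 107 in 1 cell. Without the top cells they were 2.08 and 1.07. Spp1 (3.82) had 176 of 275 in 1 cell and was 4.32 without the top cells. Mpo is made by granulocyte precursors, and Mmp13 and Spp1 by late hypertrophic cells and bone cells.

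The other large ratios were spread over more cells. Foxd1, a forkhead factor, was 13.0 CPM in WT and 36.6 in Bmx-CreER Wls, a ratio of 2.82 (1.73 to 4.81), from 19 and 79 cells. It was 1.89 (1.16 to 3.25) in cycling cells with Epyc under 10 per 10000. In the cells with Xist and no Y-linked UMI it was 11.8 (2.06 to 473), where the 77 WT cells held only 3.23 CPM. Serpina3n, a protease inhibitor, was 2.72 (1.70 to 4.52) beside 2.86 in non-cycling cells. It was 3.04 (1.14 to 11.4) in those Xist cells and 9.14 (2.38 to 77.9) in cycling cells with Epyc under 10 per 10000. Gm12715 and Gm9843, predicted loci without a gene name, were 2.71 (1.73 to 4.4) and 2.64 (2.18 to 3.20). Mt2, a metallothionein, was 2.73 (1.96 to 3.88) but 0.781 (0.521 to 1.21) in those Xist cells. Sfrp5, a secreted Wnt antagonist of the resting zone, was 24.7 CPM in WT and 56.9 in Bmx-CreER Wls, a ratio of 2.31 (1.61 to 3.39), beside 1.04 in non-cycling cells. It was 3.57 (2.09 to 6.57) in the low-Epyc cycling cells and 1.72 (0.924 to 3.54) in the Xist cells. Pthlh, which encodes parathyroid hormone-related protein, was 14.3 and 28.8 CPM, a ratio of 2.02 (1.24 to 3.41), beside 1.49. It was 1.24 (0.563 to 3.24) in the Xist cells and 1.30 (0.762 to 2.31) in the low-Epyc cells. Of the 18 Wnt genes with 100 UMIs in this comparison, Sfrp5 was higher and 2 were lower, the transcription factor Lef1 at 0.559 (0.375 to 0.832) and Ctnnb1, which encodes beta-catenin, at 0.658 (0.552 to 0.783), against 3.91% of all genes higher and 2.93% lower. They were 0.830 and 0.616 in non-cycling cells. The ligand Wnt5b, under 100 UMIs, stood at 0.349 (0.214 to 0.560) beside 0.321.

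**Figure D5:**
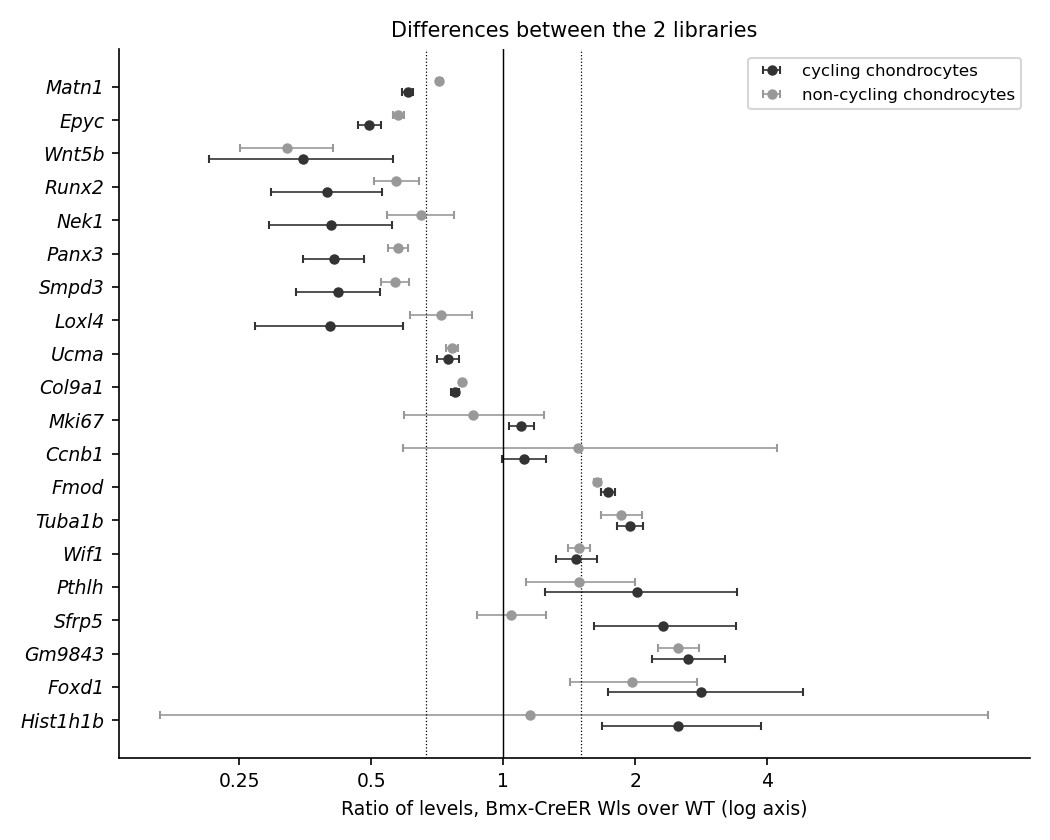
Ratio of the level in Bmx-CreER Wls to that in WT (horizontal log axis) for named genes, in cycling chondrocytes (black) and non-cycling chondrocytes (grey), with 95% counting intervals as bars, a solid line at equal levels and dotted lines at 1.5-fold. Mki67 and Ccnb1 lie near 1, Epyc, Wnt5b, Runx2 and Panx3 lie below the lower dotted line in both classes, and Sfrp5 lies at 2.31 in cycling and 1.04 in non-cycling cells.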

How the data were processed

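Single-cell RNA-seq of lineage-depleted E18.5 cells was analysed in 1 WT and 1 Bmx-CreER Wls library. The deposited values are raw UMI counts per gene and cell, made by the authors with bcl2fastq 2.19.1.403, UMI-tools 1.0.1, STAR 2.7.1a and featureCounts 1.6.4 (Subread) on mm10, as the submitters' processing notes name them. Cells with over 200 and under 5000 genes and under 30% mitochondrial UMIs were kept, which removed 262 and 205 barcodes. The members, gene lists and comparisons were chosen with earlier results of these data known. UMIs were summed over the cells of a class and scaled to UMIs per 1000000 (CPM). Poisson intervals for CPM, binomial (Clopper-Pearson) intervals for shares and conditional binomial intervals for ratios are exact, at 95%, and reflect counting error only. The 3 UMIs that a count of 0 allows come to 1.95 and 1.11 CPM in the cycling chondrocytes. With 1 library per group no test was run and no p-value is given.

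Genes needed 100 UMIs over the classes compared. The genes of the selection were left out of the counts, and mitochondrial, haemoglobin, Xist and Y-linked genes were left out between libraries. Named genes were the 12 largest and 12 smallest ratios against non-cycling cells and the 10 and 10 against cycling stromal cells (by the library nearer 1), the 8 and 8 between libraries, the markers, and members of 41 gene lists with most UMIs or a distinct role. A gene that this rule also named is not reported here. Thinning drew 2000 UMIs from each cell without replacement. Scrublet in scanpy 1.11.5 called 39 WT cells (0.680%) and 0 Bmx-CreER Wls cells as doublets, so it did not work here and all cells were kept. Leaving out the top 5% of its scores, which held 33 and 70 cycling chondrocytes, was an alternative. In all, 28 alternatives were planned and 11 were added after the data were seen. Python 3.11.15, numpy 2.4.6, scipy 1.17.1, pandas 2.3.3, matplotlib 3.10.9, and R 4.3.3 with edgeR 4.0.16 (TMM factors only) were used. The scripts were tested on simulated data.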

Additional observations from a re-analysis of the deposited data

Results flagged for a closer look

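Only named genes, members of most gene lists and a few other markers, each with at least 100 UMIs, were scanned here, not all genes. For 6 of them the ratio of cycling to non-cycling chondrocytes lay on opposite sides of 1 in the 2 libraries, with counting intervals that did not include 1. The differences between the libraries were not tested. Hspa1a, a heat shock gene of the dissociation response, was 0.541 in WT and 1.55 in Bmx-CreER Wls. The early response genes Jun and Fos were 0.728 and 0.815 in WT and 1.16 and 1.03 in Bmx-CreER Wls. Sfrp5, the Wnt antagonist of the resting zone, was 0.631 in WT and 1.4 in Bmx-CreER Wls. Col3a1, a fibrillar collagen of soft tissue, was 1.08 and 0.960. Ctsk was 1.24 and 0.665, and the WT value rested on 1 cell, being 0.425 without the cell with most Ctsk.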

How the results depend on the processing

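Of 106 recomputed summary values, 89 stayed within their counting interval or within 1.5 times the count, and 17 did not. The cycling share was 20.6% in WT and 19% in Bmx-CreER Wls at a cycle sum of at least 2, 14.4% and 14.5% at a sum of at least 5, and 9.87% and 9.61% with cells thinned to 1000 UMIs. Thinned to 2000 UMIs, the cycling share was 12.3% in WT Epyc cells and 24.4% and 19.9% in Prg4 cells of WT and Bmx-CreER Wls, and the share with more S than G2 and M phase UMIs was 12.2% and 6.56%. That share was 10.4% and 6.22% at a sum of at least 5. Genes at least 2-fold lower in cycling cells numbered 252 with a minimum of 20 UMIs and 198 without the top 5% of Scrublet scores, against 129. With a minimum of 20 UMIs, 825 genes were at least 1.5-fold higher and 750 lower in Bmx-CreER Wls, where more genes of low counts entered. Of 470 values of single genes, 459 kept direction and side of the fold. Mt2 turned from 2.73 to 0.781 in cells with Xist and no Y-linked UMI, and Epyc from 0.495 to 1.02 in cells gated below 10 Epyc UMIs per 10000. The 9 others kept direction but not the fold, and were Matn1 (0.682 as a mean over cells, 0.755 in Xist cells, 0.905 in low-Epyc cells, 0.670 in G2 and M-rich cells), Ctsk (0.951 without cells with markers of other types, 0.943 without the top cells), Panx3 (0.849) and Smpd3 (0.830) in Xist cells, and Mpo (1.07 without the top cells). Beyond what the gates on Epyc and the thinning fix by construction, the cause was not tested. Genes with under 100 UMIs under an alternative were not counted among these values. Without cells of other markers, Cav1 was 0.892 and Fabp4 2.55, from few UMIs. No paired analysis was possible because each genotype has 1 library. The main limits are the single library per genotype, the different sex makeup of the libraries, and the depth per cell, on which the count of cells with 3 cycle UMIs depends.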
